A study of Mus musculus with 24 samples.

Results

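The lungs of mice that breathed diesel exhaust after limb conditioning were set against the lungs of mice given the conditioning alone. The comparison rests on the 3 RIC+DE and the 3 RIC libraries, 6 of the 24 libraries of the series. They were chosen by their group labels and not by a measured value, though earlier results of these data were known. RIC mice had remote ischemic conditioning of the left leg, with 3 cycles of 5 min of blocked flow and 5 min of reflow on 3 days a week for 4 weeks. RIC+DE mice had the same conditioning first and were then exposed to diesel exhaust for 30 min a day on 5 days a week over about 8 weeks. Both groups were male C57BL/6 mice, given as 20 weeks old, and poly(A) RNA of whole lung was sequenced. The labels do not say in which weeks the RIC mice were conditioned, and they mention neither a sham cuff nor a sham exposure. They also do not say that each library came from its own animal, so p-values here measure the spread between libraries. All 3 RIC+DE libraries carry a batch date in March, as does RIC 1, whereas RIC 2 and RIC 3 carry one in October. The sources used here do not say what was done on those dates.

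Remote ischemic conditioning makes a limb briefly short of blood, and such cycles are known to make distant organs more tolerant of injury. Diesel exhaust brings soot and aromatic hydrocarbons into the airways, where macrophages take up particles and the aryl hydrocarbon receptor senses the hydrocarbons. Long exposure is used as a model of lung fibrosis, in which fibroblasts lay down collagen around alveoli. The lung also holds resident dendritic cells, monocytes and lymphocytes, which show peptides of inhaled material to T cells on MHC molecules.

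Total counts ran from 12437106 to 16925635 in RIC+DE and from 7041947 to 16232624 in RIC. The surfactant gene Sftpc lay between 6988 and 23164 CPM (counts scaled to the library's size with TMM factors) in the 6 libraries. RIC+DE 1 stood apart from the other RIC+DE libraries, at -62.2 on the first principal component and 41.3 on the second. Short and long transcripts did not stand in the same proportion in the 2 batches. The correlation across genes of deviation with length (Spearman's rho, a description over genes that share a library) was 0.376, 0.465 and 0.421 in RIC+DE and 0.297 in RIC 1, against -0.23 and -0.207 in RIC 2 and RIC 3.

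No gene passed the test between RIC+DE and RIC. Of 17490 genes tested with edgeR's quasi-likelihood test, with batch as a term, 0 had an adjusted p under 0.05, which is 0% of them, and the smallest adjusted p was 0.152. At an unadjusted p under 0.05 there were 1124 genes (6.43%), with 620 higher (3.54%) and 504 lower (2.88%) in RIC+DE. DESeq2 called 47 genes, 46 of them higher and 13 of them in the skeletal or cardiac muscle lists, and limma with quality weights called 0. Without RIC+DE 2 the edgeR test called 82 genes, all higher. All differences given from here on are thus differences of level that did not pass, stated with their values, and log2 fold changes are RIC+DE minus RIC with their standard errors.

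Genes of striated muscle were among those with the smallest p on the higher side, high in RIC+DE 1 and 3 and near the RIC level in RIC+DE 2. Atp2a1, the calcium pump of fast muscle fibres, was at 264 CPM in RIC+DE 1, 3.62 in RIC+DE 2 and 116 in RIC+DE 3, against 0.386, 2.19 and 3.21 CPM in the RIC libraries (log2 7.09 ± 1.19, edgeR adjusted p = 0.152). Acta1, skeletal muscle actin, was at 779, 0.0754 and 452 CPM in RIC+DE and at most 0.475 CPM in RIC. Neb, Actn3, Mybpc2 and Xirp2, which encode proteins of the muscle fibre, and the kinase gene Sbk2 completed the 6 with the smallest p together with Atp2a1, with differences from 3.19 to 5.28 on the log2 scale. Of the 40 genes with the smallest p in that direction, 10 were in the skeletal or cardiac muscle lists, 37 were higher in RIC+DE 1 and 3 than in RIC+DE 2, and RIC+DE 1 was the highest RIC+DE library for 39.

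Of 20 skeletal muscle genes, 13 were tested, and 12 of them were higher at an unadjusted p under 0.05 beside 3.54% of all genes. Their median difference was 4.22, against -0.00075 for all genes. Genes with few counts in RIC, Acta1 among them, could pass the filter on low counts largely through RIC+DE 1 and 3. The share and the median thus depend in part on that filter. The summed level of the list ran from 134.1 to 188.9 CPM in RIC and from 142.2 to 2653 CPM in RIC+DE. Myh4, a fast myosin heavy chain, was at 0 in all RIC libraries and at 150.8, 0.377 and 54.2 CPM in RIC+DE. Without RIC+DE 1 and 3 the median was 0.0021, and without RIC+DE 2 it was 5.78. The 18 tested cardiac muscle genes, which mouse lung also expresses in the sleeves of its pulmonary veins, were all above 0 with a median of 1.09, and 8 were at an unadjusted p under 0.05 (3.54% of all genes). That median was 0.062 without RIC+DE 1 and 3. Myh6, the heavy chain of atrial and adult heart muscle, was at 1912, 648.1 and 800.2 CPM in RIC+DE and at 403.1, 371.9 and 356.3 in RIC, with no overlap.

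RIC+DE 1 alone also held genes of squamous epithelium and fat. Krt4 and Krt13, the keratin pair of the oesophageal lining, were at 1832 and 2039 CPM there, against at most 1.77 CPM in the other 5 libraries. The basal cell keratins Krt5 and Krt14 were at 148 and 35.9 CPM in RIC+DE 1 and at most 3.07 CPM elsewhere. Ucp1, the uncoupling protein of brown fat, was at 36.3 CPM in RIC+DE 1 and at most 0.292 in the rest. Cidea, a lipid droplet protein, was at 94.1 CPM against at most 3.96, and Plin4, another, at 178 against at most 24.4. Rag1, a defining gene of the thymus, was at 0 in all 6 libraries. Whether muscle, oesophagus or fat was sampled with the lung was not tested, and for that reason medians without RIC+DE 1 and 3, the libraries that held these transcripts, stand beside the gene groups below.

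**Figure D1:**
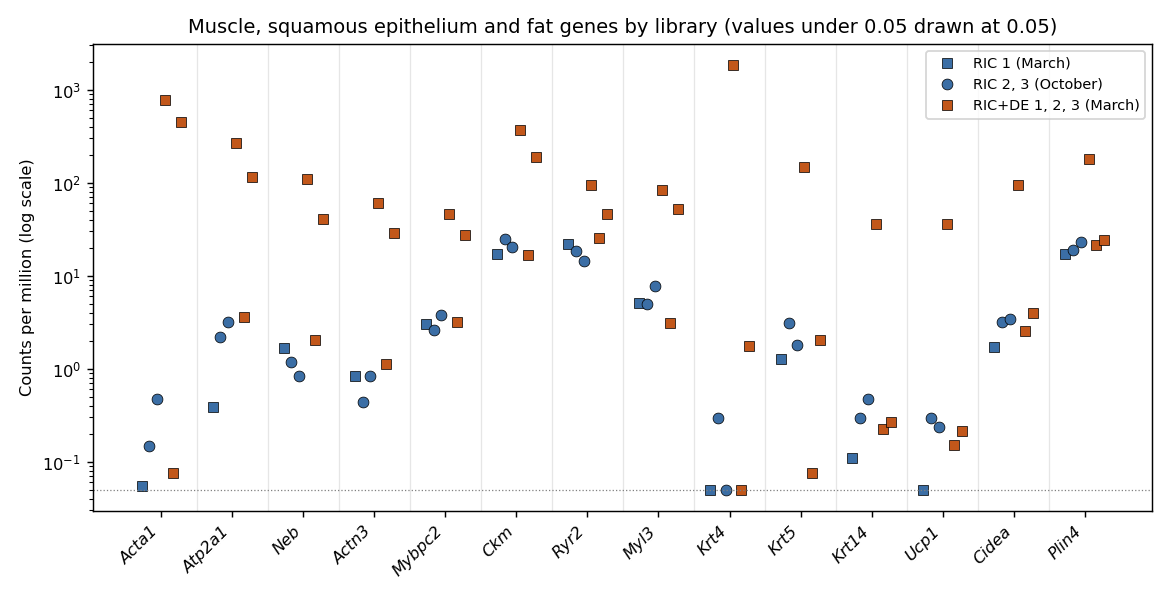
CPM (log scale) of striated muscle, keratin and fat genes in each of the 6 libraries, blue for RIC and orange for RIC+DE, with squares for the March batch and values under 0.05 drawn at 0.05. Skeletal muscle genes are high in RIC+DE 1 and 3 only, with Acta1 at 779 and 452, and the keratins and Ucp1 in RIC+DE 1 only.

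Antigen presentation genes were lower in RIC+DE. MHC class II molecules carry peptides from ingested material to helper T cells, and the invariant chain, the H2-DM editors and the protease cathepsin S prepare them. H2-Aa, the alpha chain of the I-A molecule, was at 357, 398 and 528 CPM in RIC+DE and at 572, 776 and 805 CPM in RIC. All RIC+DE libraries lay below all RIC libraries, and the difference was -0.88 ± 0.31 (edgeR adjusted p = 0.648). H2-Eb1, the beta chain of I-E, was at 305, 351 and 443 CPM against 531, 687 and 810, again without overlap (-0.78 ± 0.26, edgeR adjusted p = 0.612). Its partner in I-A, H2-Ab1, differed by -0.74 ± 0.27, and H2-DMa, part of the peptide editor, by -0.92 ± 0.34. Cd74, the invariant chain, was at 1010, 1263 and 1563 CPM in RIC+DE and 1658, 2241 and 2509 in RIC.

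All 11 class II genes tested were below 0, where 50.1% of all genes were, with a median of -0.74 and a range from -0.98 to -0.39. Of these, 6 were lower at an unadjusted p under 0.05 (2.88% of all genes) and 10 had all RIC+DE libraries below all RIC libraries (12.1% of all genes). Within March, where RIC 1 is the single control, all 11 lay below it in each RIC+DE library, against 24.6% of all genes. Ciita, the transactivator that turns class II genes on, was the member whose groups overlapped, at 36.9, 32.8 and 49.7 CPM against 56.1, 43.5 and 54.6. In RIC+DE 2, the library with muscle transcripts at the RIC level, the median was -0.78 (fit without RIC+DE 1 and 3). Removing the trend with exon length left -0.55, and over 20 alternatives the median ran from -0.93 to -0.45.

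Class II promoters carry a Y box close to the gene's start, an inverted CCAAT sequence bound by NF-Y, and B2m, the light chain of class I, has one too. The windows of H2-Aa, H2-Eb1 and B2m are shown because these genes lead their lists. They run from 250 bases before to 50 after the start (RefSeq, GRCm38.p6), with ATTGG or its complement CCAAT in capitals. H2-Aa lies on the minus strand at chr17:34287774-34288073, H2-Eb1 on the plus strand at chr17:34305617-34305916 and B2m on the plus strand at chr2:122147437-122147736.
H2-Aa: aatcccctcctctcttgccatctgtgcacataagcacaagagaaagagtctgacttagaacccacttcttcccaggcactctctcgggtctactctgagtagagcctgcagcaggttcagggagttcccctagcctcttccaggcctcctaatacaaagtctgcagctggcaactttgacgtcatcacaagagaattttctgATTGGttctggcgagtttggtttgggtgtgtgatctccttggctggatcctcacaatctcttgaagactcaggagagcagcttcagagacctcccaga
H2-Eb1: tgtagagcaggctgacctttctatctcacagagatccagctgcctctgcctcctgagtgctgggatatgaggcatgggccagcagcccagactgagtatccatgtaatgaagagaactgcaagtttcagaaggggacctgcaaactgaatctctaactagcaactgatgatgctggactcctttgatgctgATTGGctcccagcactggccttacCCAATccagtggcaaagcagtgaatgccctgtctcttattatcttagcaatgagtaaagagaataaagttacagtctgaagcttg
B2m: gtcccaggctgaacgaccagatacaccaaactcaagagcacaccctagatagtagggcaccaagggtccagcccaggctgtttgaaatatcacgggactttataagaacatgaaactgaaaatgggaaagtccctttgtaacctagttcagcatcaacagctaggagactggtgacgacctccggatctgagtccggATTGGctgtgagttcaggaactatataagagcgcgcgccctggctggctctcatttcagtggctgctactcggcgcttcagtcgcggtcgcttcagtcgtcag
The capitals start 48 bases before the start of H2-Aa and 53 before that of B2m. Of the 8 class II list genes with a window in the table, 7 held ATTGG on either strand, and 41.1% of all 27025 genes did, as did 12 of 16 clock genes. This motif was chosen after the expression values were seen, and a match describes the letters in the window only. The other motifs counted on both strands, which may overlap it at their free positions, were the E box CACGTG, the box TATAAA, the aryl hydrocarbon receptor motif GCGTG, the antioxidant response element and the heat shock element. They were in 0, 1, 0, 2 and 0 of the 8 genes and in 8.09%, 15.7%, 35.2%, 14.0% and 0.662% of all genes.

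MHC class I, which shows peptides from inside the cell to cytotoxic T cells, was lower as well. B2m was at 807, 932 and 1113 CPM in RIC+DE and at 1272, 1629 and 1911 in RIC, without overlap (-0.93 ± 0.31, edgeR adjusted p = 0.617). Psmb8 and Psmb10, subunits of the immunoproteasome that cuts those peptides, differed by -0.79 ± 0.35 and -0.78 ± 0.32. Of 15 genes tested 14 were below 0, 5 of them at an unadjusted p under 0.05 (2.88% of all genes), with a median of -0.53, and 9 had groups that did not overlap (12.1% of all genes). The median was -0.58 without RIC+DE 1 and 3.

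Transcripts of lymphocytes were lower than in RIC in the same libraries. In bulk tissue, fewer cells of a type and less RNA per cell cannot be told apart. Ccl5, a chemokine of T and NK cells, was at 22.1, 38.8 and 38.7 CPM in RIC+DE and at 70, 89.3 and 93 CPM in RIC, and every RIC+DE library lay under every RIC library (-1.20 ± 0.40, edgeR adjusted p = 0.62). Gzma, a granzyme of killer cells, was at 13, 22.2 and 25 CPM against 41.1, 54.4 and 60.2 (-1.50 ± 0.56). Klrk1, the activating receptor NKG2D, differed by -0.76 ± 0.29. In the NK cell and cytotoxic list 14 of 15 genes were below 0 with a median of -0.72, which was -0.37 with the length trend removed. Of them 6 were lower at an unadjusted p under 0.05 (2.88% of all genes), and 10 did not overlap (12.1% of all genes).

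Of 20 T cell genes 16 were below 0 with a median of -0.55. Groups did not overlap for 15 of them (12.1% of all genes), and 17 lay below RIC 1 in every RIC+DE library (24.6% of all genes). Trbc1 and Trac, constant parts of the T cell receptor, were at 6.79 to 8.19 and 7.31 to 9.42 CPM in RIC+DE and at 14.4 to 24.1 and 14.1 to 22.6 CPM in RIC. Cd3g, a signalling chain of that receptor, differed by -0.81 ± 0.32. All 16 B cell genes were below 0 with a median of -0.48, but 0 at an unadjusted p under 0.05. Cd79a, the signalling chain of the B cell receptor, was at 33.2, 26.4 and 27.4 CPM against 48.1, 142 and 65.7, so that the B cell values in RIC were spread, with RIC 2 the highest. Without RIC+DE 1 and 3 the medians were -0.40 for NK cells, -0.47 for T cells and -0.68 for B cells. Among the unexposed, unconditioned controls (C), the summed T cell list was at 258.5 CPM in C 1, of March, and at 404.7 and 339.9 in C 2 and C 3. In RIC+DE it ran from 204.6 to 263.6 CPM. The NK list was at 208.8, 279.5 and 161.7 CPM in C 1, C 2 and C 3, against 108.7 to 161.2 in RIC+DE. The B cell list was at 557.3, 1129 and 753.4 CPM in C 1, C 2 and C 3, against 423.4 to 620.9 in RIC+DE.

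**Figure D2:**
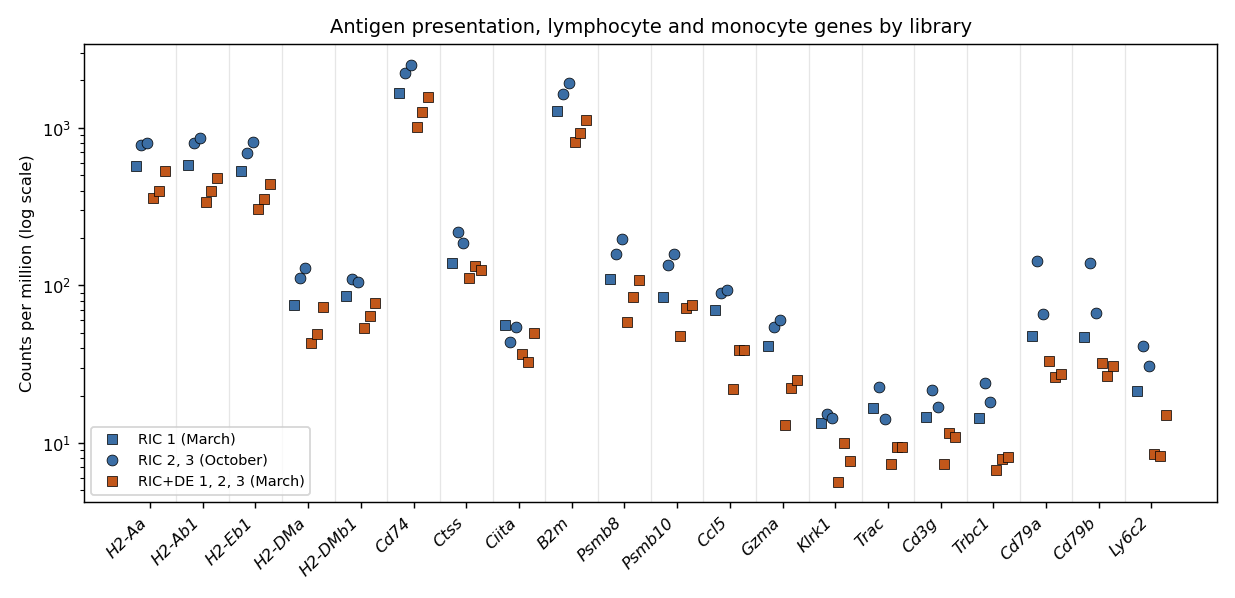
CPM (log scale) of antigen presentation, lymphocyte and monocyte genes, with RIC libraries in blue and RIC+DE libraries in orange and squares for March. For every gene drawn except Ciita, the 3 RIC+DE libraries lie below the 3 RIC libraries, RIC 1 of the same batch included. Many of them were named for a small p on these same values. Wholly below were 10 of 11 tested class II, 9 of 15 class I and 10 of 15 NK genes, and 12.1% of all genes. For T cells these were 15 of 20, for B cells 9 of 16 and for monocytes and interstitial macrophages 2 of 19.

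The 6 named genes with the smallest p among those lower in RIC+DE were Ly6i, Batf, Snx22, Ly6c2, Cd209a and Retnla. Ly6c2, the surface marker of inflammatory monocytes, was at 8.47, 8.22 and 15.1 CPM in RIC+DE and at 21.4, 41.1 and 30.7 in RIC (-1.52 ± 0.45, edgeR adjusted p = 0.509). Ly6i, of the same family, was at 2, 1.96 and 2.3 CPM against 7.01, 4.09 and 4.39 (-1.64 ± 0.42, edgeR adjusted p = 0.355). Batf, a transcription factor of activated lymphocytes and dendritic cells, was at 5.56, 6.11 and 6.7 CPM against 10.6, 10.2 and 16.9. Of the 6, which were ranked on these same values, all but Retnla lay wholly below RIC, as did 12.1% of all genes. Cd209a, a lectin of monocyte-derived dendritic cells, was at 8.79, 8.14 and 8.03 CPM against 17.7, 14.8 and 17 (-0.96 ± 0.29), and Snx22, a sorting nexin, differed by -1.04 ± 0.31. Retnla, a secreted product of macrophages in type 2 immunity, had overlapping groups, with RIC 1 at 157 CPM and the other RIC libraries at 31.1 and 47.5, and its difference of -1.34 became -0.69 without RIC 1.

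Chemokine and interferon-induced genes also lay mostly on the lower side. Of 32 tested cytokine and chemokine genes 26 were below 0 with a median of -0.50, and 7 were lower at an unadjusted p under 0.05 (2.88% of all genes). That median was -0.22 with the length trend removed and -0.52 without RIC+DE 1 and 3. Ccl22 and Ccl17, ligands of CCR4 made by dendritic cells, differed by -1.19 ± 0.38 and -1.05 ± 0.35. Of 28 interferon response genes 25 were below 0 with a median of -0.34, -0.29 without RIC+DE 1 and 3, and Isg15, a ubiquitin-like protein, was at 9.38, 9.73 and 9.27 CPM against 13.5, 16.1 and 28.7. Cd163, the haemoglobin scavenger receptor of macrophages, went the other way at 33.3, 12.4 and 11.7 CPM against 4.86, 3.95 and 6.53 (1.76 ± 0.49, edgeR adjusted p = 0.413), without overlap. The median of the 19 tested monocyte and interstitial macrophage genes was -0.27, and it was 0.20 with the compared groups fitted alone, 0.025 with the length trend removed and -0.13 without RIC+DE 1 and 3.

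Clock and glucocorticoid response genes were mostly higher in RIC+DE than in RIC. The clock is a loop in which the activators BMAL1 and CLOCK bind E boxes and induce their own repressors, among them the Per genes and Nr1d2, and glucocorticoids from the adrenal gland follow the time of day. Per1, a repressor that glucocorticoids also induce, was at 108, 193 and 110 CPM in RIC+DE and at 37.9, 39.2 and 98.5 in RIC, all above, though RIC 3 lay close (1.82 ± 0.63, edgeR adjusted p = 0.65). Usp2, a clock-controlled ubiquitin protease, was at 37, 31.2 and 21.4 CPM against 16.7, 14.6 and 13.3 (1.18 ± 0.40). Nr1d2 was at 63.2, 114 and 82.9 CPM against 25.2, 43 and 11.4. Of 19 clock genes tested 14 were above 0 (49.9% of all genes) with a median of 0.68, and 9 had all RIC+DE libraries above all RIC libraries (12.3% of all genes). Npas2, an activator of the loop, singled out after its values were seen, was on the other side at 7.89, 4.07 and 9.86 CPM against 16.3, 11 and 22.8.

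Fkbp5, a chaperone partner of the glucocorticoid receptor and one of its best known targets, was at 50, 83.5 and 38 CPM in RIC+DE and at 18.7, 12.3 and 24.7 in RIC (1.67 ± 0.57, edgeR adjusted p = 0.63). The groups did not overlap, and RIC+DE 2 was the highest. Zbtb16, another target, was at 113, 170 and 66.9 CPM against 19.5, 11.8 and 56.6. Pdk4, a kinase that holds back glucose oxidation, was at 89.9, 17.3 and 23.7 CPM against 4.97, 5.26 and 8.67 (2.85 ± 0.88). Of 17 glucocorticoid response genes 12 were above 0 with a median of 0.80, 5 at an unadjusted p under 0.05 (3.54% of all genes), and 12 lay above RIC 1 in each RIC+DE library, against 21.9% of all genes. Without RIC+DE 1 and 3 the median was 1.17. For the clock it was 0.93 then and 0.25 within March alone. Some controls without diesel reached these levels. The summed clock list was at 1411 CPM in C 1, of March, and at 607.1 and 684.8 in C 2 and C 3, against 1079 to 1609 in RIC+DE. The glucocorticoid list was at 1517, 1516 and 2370 CPM in C 1, C 2 and C 3, against 1553 to 2464 in RIC+DE.

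Windows of Per1 and Tef, a clock-controlled activator at 254.7, 369.7 and 187.6 CPM against 175.5, 115.1 and 90.1, are printed to show the E box CACGTG in capitals (RefSeq, GRCm38.p6, both plus strand, Per1 at chr11:69098699-69098998 and Tef at chr15:81802423-81802722).
Per1: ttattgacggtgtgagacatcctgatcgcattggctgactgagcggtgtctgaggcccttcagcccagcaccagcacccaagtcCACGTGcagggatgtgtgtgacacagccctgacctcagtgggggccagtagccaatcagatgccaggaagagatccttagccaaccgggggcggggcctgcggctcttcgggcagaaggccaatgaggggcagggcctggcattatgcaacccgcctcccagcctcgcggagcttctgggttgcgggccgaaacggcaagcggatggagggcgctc
Tef: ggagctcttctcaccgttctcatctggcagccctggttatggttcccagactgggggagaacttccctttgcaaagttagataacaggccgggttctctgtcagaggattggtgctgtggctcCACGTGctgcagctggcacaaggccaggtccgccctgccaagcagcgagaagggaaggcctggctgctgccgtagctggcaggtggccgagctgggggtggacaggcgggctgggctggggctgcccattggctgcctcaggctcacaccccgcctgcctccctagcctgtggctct
The E box starts 166 bases before the start of Per1 and 127 before that of Tef. Among 16 clock genes with a window 5 held CACGTG, which reads the same on both strands, as did 4 of 15 glucocorticoid response genes and 8.09% of all genes. Tef was singled out for its motif, after values were seen.

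**Figure D3:**
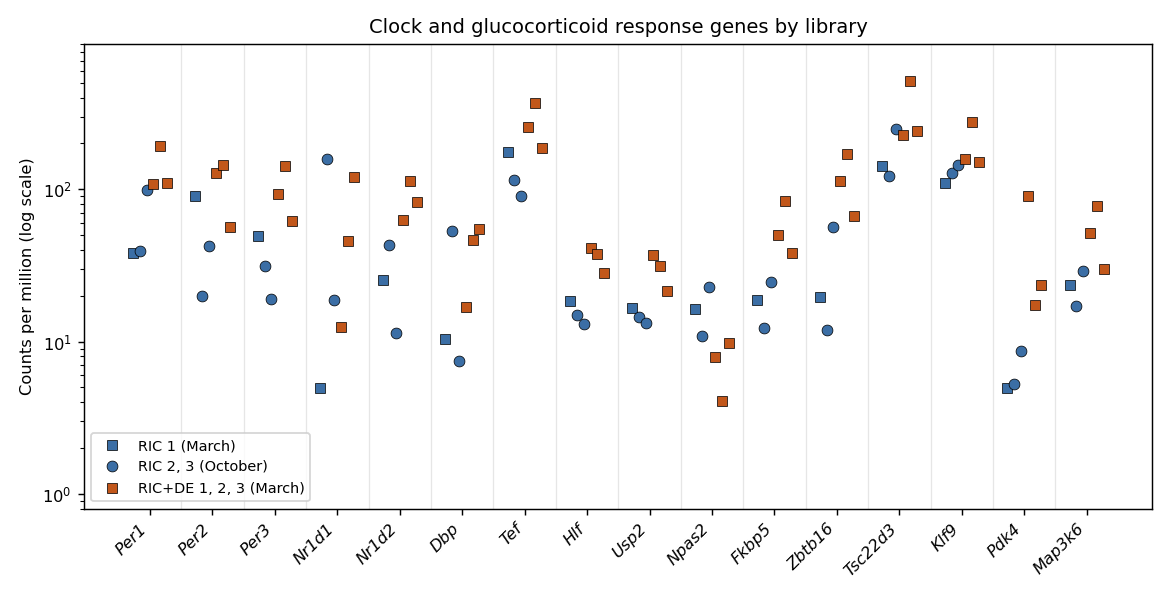
CPM (log scale) of clock genes (Per1 to Npas2) and glucocorticoid response genes (Fkbp5 to Map3k6) in each library, RIC in blue, RIC+DE in orange, squares for March. RIC+DE libraries lie higher for Usp2, Fkbp5, Zbtb16 and Pdk4, while Nr1d1 overlaps, with RIC 1 at 4.97 and RIC 2 at 157.4.

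The readouts of fibrosis showed no shared direction. Col1a1, the main fibrillar collagen chain, was at 347, 168 and 458 CPM in RIC+DE and at 469, 299 and 414 in RIC (-0.03 ± 0.40, edgeR adjusted p = 0.98). Col3a1, its partner in loose tissue, differed by -0.33 ± 0.38 and Acta2, smooth muscle actin of myofibroblasts, by -0.40 ± 0.40. Ccn2, a matricellular growth factor induced by TGF-beta, was at 246, 236 and 270 CPM against 165, 163 and 178, without overlap (0.69 ± 0.33, edgeR adjusted p = 0.662). Fn1, fibronectin, was at 514, 369 and 318 CPM against 331, 245 and 270, with overlap. Timp1, an inhibitor of matrix proteases, was at 3.3, 4.3 and 7.55 CPM against 7.12, 6.43 and 10.2, on the lower side (-0.91 ± 0.40). Tgfb1 was at 74.8, 89.5 and 82.5 CPM against 103.9, 121.4 and 114.4, lower without overlap in CPM, which carry no batch term, and the fitted difference with the batch term was -0.11 ± 0.21. Spp1, osteopontin, differed by -1.01 ± 0.55, with overlap. The 32 collagen and matrix genes had a median of 0.24, with 23 above 0, and it was 0.062 with the length trend removed, -0.06 in the March libraries alone and -0.24 without RIC+DE 1 and 3.

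Genes of the response to exhaust and of inflammation had no passing test, and most of the single readouts overlapped between the groups. Cyp1a1, the enzyme that the aryl hydrocarbon receptor induces most, was at 6.98, 8.14 and 137 CPM in RIC+DE and at 6.68, 4.53 and 4.16 in RIC. All RIC+DE libraries lay above all RIC libraries, but 2 of them by little, with RIC+DE 3 far higher, and in the unexposed controls C 1 was at 153 CPM. Its difference of 1.47 ± 1.32 became -1.28 without RIC+DE 3. Of 8 aryl hydrocarbon receptor genes 3 lay higher without overlap (12.3% of all genes), with a list median of 0.34, which was -0.23 without RIC+DE 1 and 3. Cyp1b1 differed by 0.39 ± 0.41, Nqo1, a quinone reductase, by 0.29 ± 0.51 and Hmox1, heme oxygenase, by -0.25 ± 0.26. Among the cytokines, Il6 stayed under 1 CPM in all 6 libraries, Il1b differed by 0.14 ± 0.51, and Tnf by -0.54 ± 0.54. Ccl2, the monocyte chemokine, was at 1.29, 0.98 and 1.23 CPM against 1.99, 1.46 and 1.78, without overlap (-0.98 ± 0.49). Muc5ac, the gel-forming airway mucin, differed by 0.28 ± 0.59. Of 33 NRF2 and antioxidant genes 32 were tested, with a median of -0.19, -0.32 without RIC+DE 1 and 3, and 0 higher at an unadjusted p under 0.05.

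Epithelial, chaperone and mesothelial genes differed in part with single libraries. Sftpa1, a surfactant collectin of alveolar type 2 cells, was at 1598, 2398 and 2768 CPM in RIC+DE and at 2775, 3398 and 3536 in RIC. The 17 type 2 genes had a median of -0.35, with 14 below 0, -0.20 with the length trend removed, -0.13 without RIC+DE 1 and -0.29 without RIC+DE 1 and 3. Manf, a secreted factor of the endoplasmic reticulum, was at 62.3, 83.4 and 90.6 CPM against 120, 128 and 202, without overlap (-1.15 ± 0.38, edgeR adjusted p = 0.612). Of 20 unfolded protein response genes 7 were lower at an unadjusted p under 0.05 (2.88% of all genes), Sdf2l1 and the disulphide isomerase Pdia6 among them. The list's median was -0.36, -0.18 with the length trend removed and -0.26 without RIC+DE 1 and 3. Muc16, a mucin of the pleural lining, was at 31.9, 7.77 and 13.8 CPM against 1.99, 10.1 and 9.14. Of 11 mesothelium genes 10 lay above RIC 1 in March (21.9% of all genes), and the median of 0.74 became 0.11 without RIC 1 and 0.34 without RIC+DE 1 and 3.

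The 30 ribosomal protein genes, whose transcripts are short, were all below 0 with a median of -0.74. Only 1 of them lay below RIC 1 in every RIC+DE library, against 24.6% of all genes. Fitted on the compared groups alone the median was -0.039, and with the length trend removed -0.46. Nuclear genes of oxidative phosphorylation had a median of -0.53, which was 0.14 in the compared groups alone and -0.15 with the length trend removed. In the March libraries alone the medians of the ribosomal and oxidative phosphorylation lists were -0.072 and 0.11, and without RIC+DE 1 and 3 they were -0.59 and -0.63. The relation to exon length, given above for each library, differed between March and October, and its part in these medians beyond the removal of the trend was not tested.

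**Figure D4:**
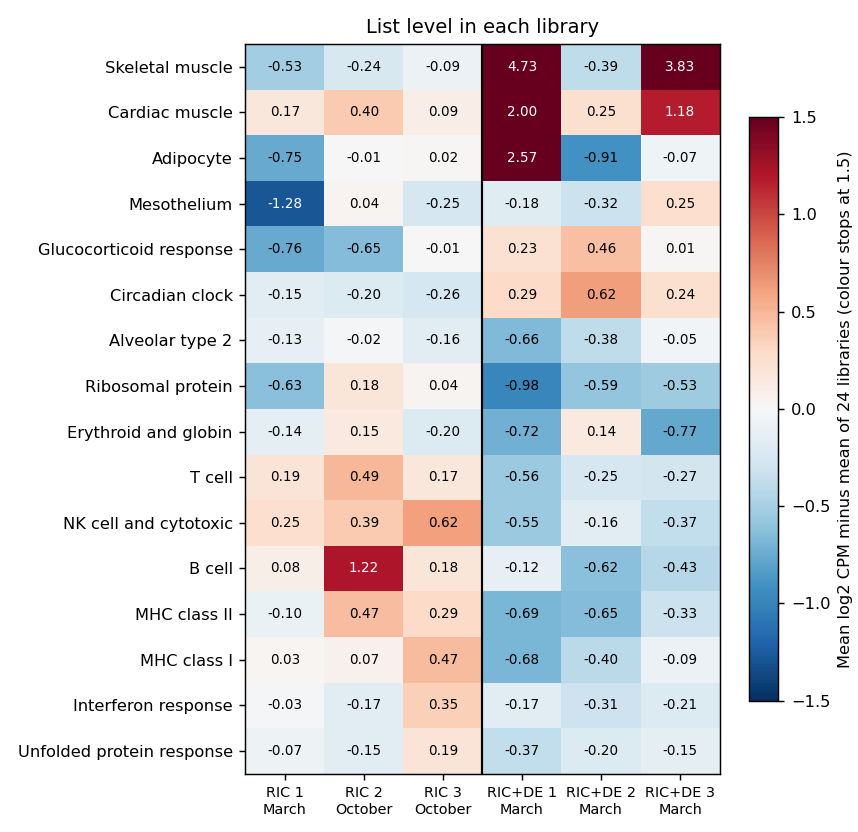
Level of 16 gene lists in each of the 6 libraries, as the mean log2 CPM of members minus their mean over 24 libraries, with the value printed in each cell and colour ending at 1.5. Muscle is high in RIC+DE 1 and 3, MHC class II runs from -0.69 to -0.33 in RIC+DE and from -0.10 to 0.47 in RIC, and ribosomal protein is low in RIC 1 as well as in RIC+DE.

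Whether diesel exhaust went with other differences in conditioned than in unconditioned mice was asked by subtracting DE minus C from RIC+DE minus RIC. DE mice had the exhaust without conditioning, and C mice had neither. The 3 DE libraries are all from October and the 3 RIC+DE libraries all from March, so this test rests on the batch term. The edgeR test called 0 of 17490 genes (0%), with a smallest adjusted p of 0.617. At an unadjusted p under 0.05 it had 1045 genes (5.97%), and DESeq2 and limma each called 0.

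Trac and Ccl21a, the chemokine that draws T cells into lymphoid tissue, were the 2 named genes with the smallest p on the lower side of this contrast. Ccl21a was at 333, 131 and 199 CPM in DE and at 76.9, 95.6 and 80.1 in C, while it was at 40.9, 56.6 and 55 CPM in RIC+DE and at 65.1, 99.7 and 93.7 in RIC. It was thus higher in all DE libraries and lower in all RIC+DE libraries than in their controls, a contrast of -2.36 ± 0.53. Ccl19, the other ligand of CCR7, was at 24.3, 1.19 and 13.2 CPM in DE, high in DE 1 and 3, and at most 0.589 CPM in RIC+DE. Galnt15, a glycosyltransferase, was at 72.3, 57.4 and 57.6 CPM in RIC+DE against 35.4, 37.7 and 24.8 in RIC, and at 33.9, 30 and 33.2 in DE against 56.7, 42.2 and 46.9 in C (1.72 ± 0.40). Ano9, of the anoctamin family, had a contrast of 2.52 ± 0.53, the smallest p of all genes in it. In 9 of 95 named genes examined, RIC+DE lay wholly on one side of RIC and DE wholly on the opposite side of C, against 2.84% of all genes. Of these 9, 6 were named for their small p in this contrast. The rest, Manf, Cd3g and Pdia6, were named for a small p between RIC+DE and RIC within their lists. The naming used the same values, so these shares do not compare like with like. Sik1, a kinase induced by cyclic AMP, had a contrast of 1.51 ± 0.38, and Aif1, a macrophage actin-binding protein, one of -2.23 ± 0.60.

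List medians of the contrast are set beside those of DE minus C. For T cells DE minus C had a median of 0.66 and the contrast one of -1.21. For B cells these were 0.37 and -0.89, and for MHC class II 0.07 and -0.80, with all 11 genes below 0, where 49.4% of all genes were. Clock genes had -0.14 and 0.90, and that contrast was -0.10 in the compared groups alone and 1.46 without C 2. Without DE 1 the T cell contrast was -0.62 and the B cell contrast -0.34, and without DE 1 and RIC+DE 1 the T cell contrast was -0.56.

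**Figure D5:**
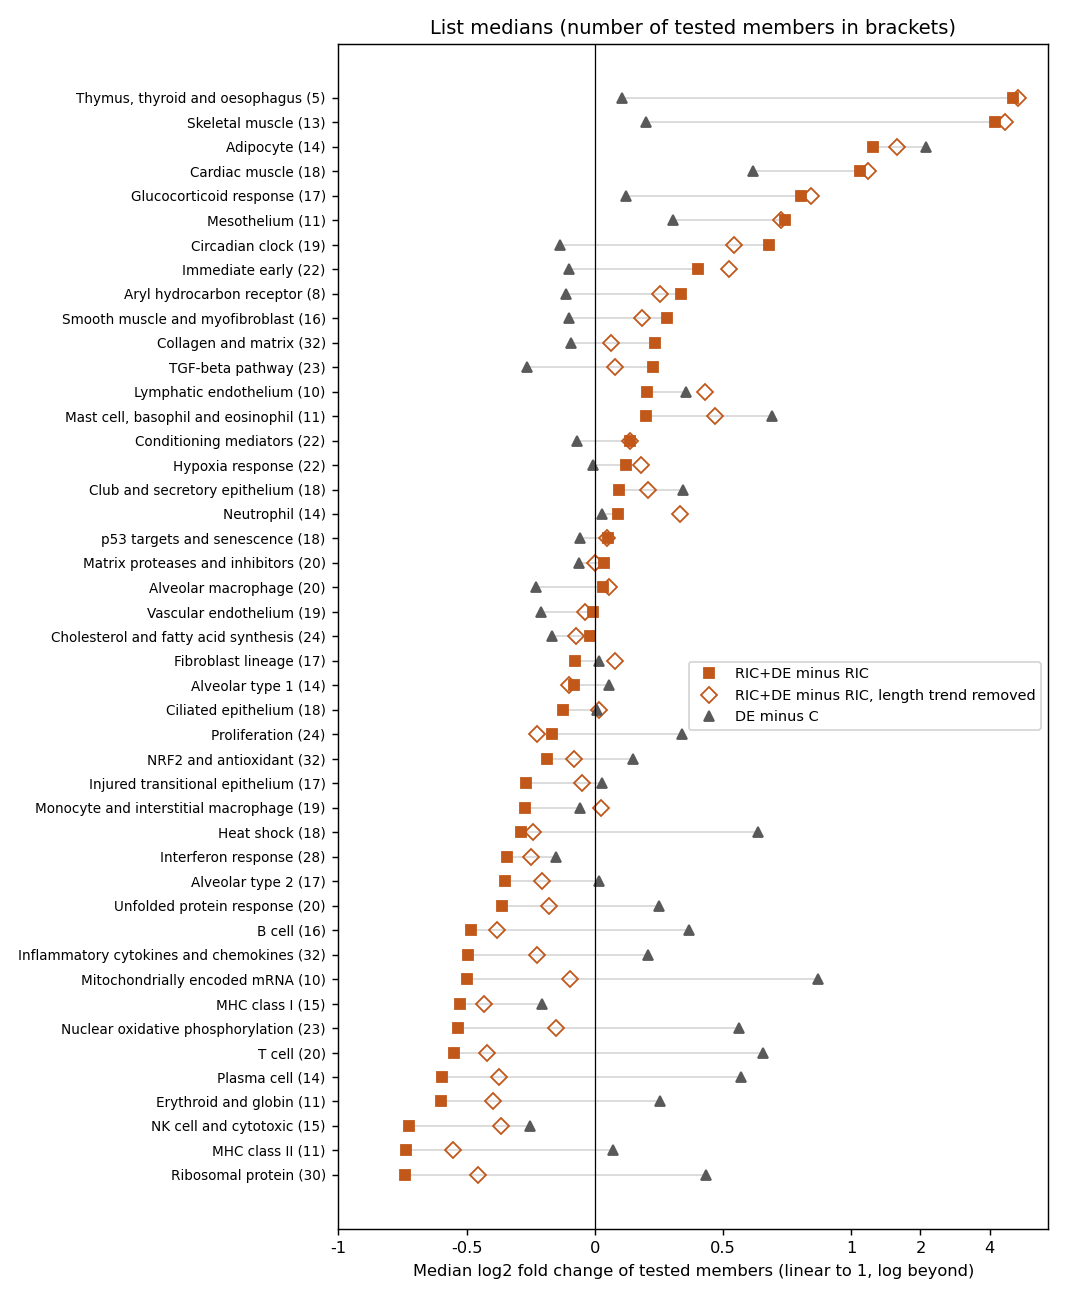
Median log2 fold change of the tested members of each of the 45 gene lists, with their number in brackets, for RIC+DE minus RIC as squares, the same with the length trend removed as open diamonds, and DE minus C as triangles, on an axis that is linear to 1 and logarithmic beyond. MHC class II is at -0.74 in RIC+DE minus RIC and at 0.07 in DE minus C, and skeletal muscle is at 4.22 and 0.20.

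DE+RIC mice, conditioned during the same exposure instead of before it, were set against the same RIC libraries, so the 2 differences share their controls and are given side by side only. DE+RIC holds 2 October libraries and 1 from November. DE+RIC 3 is the only November library of the series, so its batch term fits it fully. The differences given here thus rest on DE+RIC 1 and 2. No gene passed in edgeR (0 of 17490, 0%), with 616 at an unadjusted p under 0.05 (3.52%), DESeq2 called 3 and limma 0. For MHC class II the median was -0.37 there and -0.74 in RIC+DE, for NK cells -0.45 and -0.72, for T cells -0.60 and -0.55, and for B cells -0.86 and -0.48. Glucocorticoid response genes had 0.68 and 0.80, and clock genes 0.21 and 0.68. The summed level of the glucocorticoid list was 1374 CPM in DE+RIC 1 and 2894 CPM in DE+RIC 2. The skeletal muscle median was -0.39 in DE+RIC and 4.22 in RIC+DE. Ly6c2 differed by -0.08 in DE+RIC, H2-Aa by 0.04 and Ccl5 by -1.03.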

How the data were processed

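Per the labels' protocols, lung RNA came from TRIzol extraction, and its poly(A) fraction went into libraries that keep strand. Reads were handled with FastQC 0.12.1, fastp 0.23.4, STAR 2.7.11b, featureCounts and the build GRCm39, per the submitters' processing notes, which also name R 4.4.1 and DESeq2. The authors deposited raw counts, whole numbers of reads per gene, for 78275 genes in 24 libraries. The sources used here do not name the annotation release, the strand setting or the handling of multiple matches, so overlapping and near-identical genes (MHC, immunoglobulin, ribosomal protein, globin) carry uncertain counts. Symbols and exon lengths came from a GRCm38 annotation by identifier, for 51486 genes that held 98.45% of the counts.

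The counts went into edgeR 4.0.16 in R 4.3.3: filter on low counts by group (17490 genes left), TMM, a quasi-likelihood fit of all 24 libraries with batch and group, Benjamini-Hochberg adjustment and a threshold of 0.05. The 3 contrasts were RIC+DE minus RIC, that minus (DE minus C), and DE+RIC minus RIC. DE minus C was also taken from this fit, for its list medians, and its smallest edgeR adjusted p was 0.192. The scripts were tested on simulated data. Named genes were the 6 with the smallest p in each direction at a mean of at least 1 CPM, the 3 with the smallest p in each list and 18 readout genes, without predicted genes, pseudogenes and receptor segments. The text prints a part of them, and the constant receptor genes Trac and Trbc1 were kept. Samples, members, the 45 gene lists and the rule were chosen with earlier results of these data known. Lists are described by counts and medians and not tested. The length trend was removed with a lowess curve (span 0.3) over 16269 genes. Promoter windows came from RefSeq. Alternatives were DESeq2 1.42.0, its size factors, other filters, no batch term, other sets of libraries, the replicate number as a block and limma 3.58.1 with quality weights. Leaving out RIC+DE 1 and 3, or DE 1 and RIC+DE 1, and removing the length trend were chosen after seeing the data.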

Additional observations from a re-analysis of the deposited data

Results flagged for a closer look

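In 9 of 95 named genes every RIC+DE library lay on one side of every RIC library and every DE library on the opposite side of every C library. The share over all 17490 genes was 2.84%. Of the 9, 6 had been named for a small p in this contrast, and Manf, Cd3g and Pdia6 for one between RIC+DE and RIC. The naming used the same values, so these shares do not compare like with like. In the edgeR test of the difference itself none passed (adjusted p = 0.617 for each of the 9), and RIC+DE and DE share no batch. Lower in RIC+DE than in RIC and higher in DE than in C were Ccl21a (contrast -2.36), Trac (-1.85), Manf (-1.76), Cd3g (-1.53) and Pdia6 (-0.82). Higher in RIC+DE than in RIC and lower in DE than in C were Hhipl1 (1.96), Galnt15 (1.72), Sema6c (1.72) and Sik1 (1.51). Manf was at 140, 156 and 158 CPM in DE and at 90.4, 112 and 111 CPM in C, while RIC+DE libraries were at 62.3 to 90.6 and RIC libraries at 120 to 202. Cd3g was at 33.3, 20.5 and 23.4 CPM in DE and at 12.8, 19 and 14.9 in C. Hhipl1 was at 4.98, 4.75 and 3.32 CPM in RIC+DE, 1.66, 2.34 and 2.02 in RIC, 2.3, 1.94 and 1.93 in DE and 2.91, 2.78 and 2.6 in C.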

How the results depend on the processing

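The count of genes called between RIC+DE and RIC, 0 with edgeR, was 605 with no filter on low counts, 47 with DESeq2, 13 with no batch term, 39 with the replicate number as a block beside the batch term and 5 with the block alone. Leaving out each library gave 0 to 82, and the 82 came without RIC+DE 2, 19 of them in the muscle lists. Same-numbered RIC and RIC+DE libraries had deviations correlated at 0.122, -0.0163 and 0.11, and differently numbered ones at -0.137 to 0.0739. These values do not decide whether replicate numbers pair the libraries. For the difference between conditioned and unconditioned mice, the count was 289 with no filter and 0 to 11 with each library left out (2 without DE 2 and 11 without RIC+DE 2). For DE+RIC minus RIC it was 91 with no filter, 10 with the compared groups alone, 3 with DESeq2 and 1 each with no batch term, the November library in October and the block without batch. The other alternatives called 0. In all of these, the cause was not tested.

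Of the 45 list medians, 22 kept their sign in all 20 alternatives, those of MHC class I and II, NK, T and B cells, clock and glucocorticoid genes among them, and 23 did not. For the difference between conditioned and unconditioned mice 29 of 45 kept it in all 24 alternatives and 16 did not, the clock among them. Named genes changed sign as follows. Without RIC+DE 1 and 3 together these were Acta1 (-1.81), Myl3 (-0.66), Krt5 (-4.07), Cidea (-0.23), Tgfb1 (0.019), Spp1 (0.0004995), Cyp1a1 (-1.17), Cyp1b1 (-0.49), Nqo1 (-0.25) and Muc5ac (-0.87). With single libraries left out, the difference ran from -0.38 (without RIC+DE 1) to 5.64 for Krt5, from -0.47 (without RIC+DE 1) to 1.43 for Muc5ac, from -1.28 (without RIC+DE 3) to 1.99 for Cyp1a1, and from -0.52 (without RIC 1) to 0.73 for Nqo1. It ran from -0.35 to 0.54 (without RIC 1; 0.29 without RIC+DE 2) for Col1a1, from -0.68 to 0.030 (without RIC+DE 2) for Col3a1, from -0.17 to 0.11 (without RIC 1) for Tgfb1, and from -0.21 (without RIC 1; -0.086 without RIC 3) to 0.68 for Il1b. Il1b was at -0.26 with no batch term and with the block alone. Hmox1 was at 0.15 and Muc5ac at -0.36 in the compared groups alone, 0.12 and -0.41 in March alone, and Muc5ac at -0.33 with limma. Fits with a library left out rest on 1 or 2 samples a group in places, which are assumed to vary like the others. RIC 1 is the single control of the RIC+DE batch, and the fewer counts of RIC 2 and RIC 3 limit low genes.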

Other observations

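Transcripts of red cells were lower in RIC+DE. Hba-a1, alpha globin, was at 423.4, 989 and 522.7 CPM against 1020, 1777 and 1197 in RIC, all below, with a difference of -1.28 ± 0.52. Of 11 tested erythroid genes 9 were below 0 with a median of -0.60, and -0.056 without RIC+DE 1 and 3, so RIC+DE 2 lay near the RIC level. Hypoxia response genes had a median of 0.12. At an unadjusted p under 0.05, 5 of 22 were higher (3.54% of all genes) and 1 was lower (2.88% of all genes). Pfkfb3, an activator of glycolysis, was at 86.9, 88.2 and 70.2 CPM against 52.2, 44.3 and 45.8, and Ndrg1, a stress-induced gene, at 59.5, 46.5 and 51.9 against 35.6, 40.9 and 40.8, both without overlap. Hif3a, a regulator of that response, was at 7.76, 6.94 and 2.68 CPM against 1.93, 1.02 and 1.42. Of 24 proliferation genes 18 were below 0 with a median of -0.17.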
